A study of Homo sapiens with 12 samples.

Results

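The comparison set the KDM2B peak lists of 4 lines of T-cell acute lymphoblastic leukaemia (T-ALL) against those of 2 lines of acute lymphoblastic leukaemia of B-cell precursors (B-ALL), with the K562 list left out. Joining peaks of the 6 lists with an overlap of 1 bp or more gave 28782 regions, against 29071 when all 7 KDM2B lists of the series were merged. The 6 lists came from 6 of the 12 samples and held 73531 of the 79473 deposited peaks. Regions where every T-ALL line and no B-ALL line had a peak are called T-ALL-only regions, and regions where both B-ALL lines and no T-ALL line had a peak are called B-ALL-only regions.

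The T-ALL lines were DND41, HPB-ALL, JURKAT and SIL-ALL, and the B-ALL lines were REH and SUP-B15. All are established human cell lines, and all 6 shared 1 protocol: growth in IMDM with 10% fetal bovine serum and chromatin immunoprecipitation with an antibody to KDM2B from Millipore, with no treatment named. DND41 and HPB-ALL are known for activation of TLX3, JURKAT for activation of TAL1, REH for the ETV6-RUNX1 fusion and SUP-B15 for the BCR-ABL1 fusion. The lineage and these lesions are background knowledge of the lines and are not in the labels, and no expression data were there to check them. Each line had 1 library and 1 list, so a line stands for itself and no call had a replicate.

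KDM2B is a JmjC-domain histone demethylase that binds unmethylated CpG-rich DNA through its CXXC zinc finger. It brings the variant Polycomb complex PRC1.1, with its ubiquitin ligase activity toward histone H2A, to CpG islands. In the blood system it is known as a regulator of progenitor growth and of leukaemia cells. An immunoprecipitation peak marks a stretch of DNA that the antibody recovered above the threshold of the peak caller.

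The T-ALL lists were longer than the B-ALL lists. They numbered 15304 peaks in SIL-ALL, 14944 in DND41, 14839 in JURKAT and 12765 in HPB-ALL, against 8146 in REH and 7533 in SUP-B15. The shortest T-ALL list was longer than the longest B-ALL list, and the means were 14463 ± 1149 peaks in T-ALL lines (SD, n = 4) and 7840 ± 433 in B-ALL lines (SD, n = 2). The ratio of the means was 1.84, and the difference of 6624 peaks had an exact permutation p of 0.0667 (two-sided). With 15 ways to choose the 2 B-ALL lines among 6, that is the smallest p this design can give, so no comparison of the sides could pass 0.05. These p-values rest on the spread among lines, which includes that among libraries.

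The length of a list depends on the depth of its library, which is unknown, and on the score at which the list ends. The lowest deposited score was 80.03 in SIL-ALL, 50.01 in JURKAT, 80 in HPB-ALL and 60 in DND41, against 50.01 in REH and 50 in SUP-B15. The score, a value the authors gave each peak with no unit stated, ranks peaks within a list. For this reason the main counts of regions are also given for equal lists. In these each line kept its 7533 top-scored peaks, the length of the SUP-B15 list. Some other counts, among them those of several arms and bands, are given as deposited only. Equal lists kept 50.4% of the DND41 list, 59.0% of the HPB-ALL list, 50.8% of the JURKAT list and 49.2% of the SIL-ALL list, against 92.5% of the REH list and 100% of the SUP-B15 list. The lowest score kept was 141 in SIL-ALL, 79.3 in JURKAT, 117 in HPB-ALL and 96.3 in DND41, against 51.4 in REH and 50 in SUP-B15. Equal length thus asked more of a T-ALL peak than of a B-ALL peak on the deposited score scale, while a common scale across the lists is not stated.

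Peaks of the T-ALL lines were wider among the top-scored ones than over the whole list. The median width was 223 bp in SIL-ALL, 240 bp in JURKAT, 253 bp in HPB-ALL and 213 bp in DND41, against 213 bp in REH and 350 bp in SUP-B15. REH stood level with the lowest T-ALL line and SUP-B15 above all 4, so the sides overlapped. The mean of the medians was 232 ± 17.8 bp in T-ALL lines and 282 ± 96.9 bp in B-ALL lines, a difference of -49.3 bp (exact permutation p = 0.4, two-sided). In equal lists the medians were 316, 352, 340 and 358 bp in DND41, HPB-ALL, JURKAT and SIL-ALL, against 221 bp in REH and 350 bp in SUP-B15. The sign of the difference turned to 56.0 bp, which did not pass either (exact permutation p = 0.2, two-sided), and without SUP-B15 the difference as deposited was 19.3 bp. The length covered by peaks was 4.51 ± 0.259 Mb in T-ALL lines and 2.74 ± 0.908 Mb in B-ALL lines (SD, n = 4 and n = 2; exact permutation p = 0.0667, two-sided), and 3.27 ± 0.214 Mb in T-ALL lines and 2.69 ± 0.977 Mb in B-ALL lines with equal lists (exact permutation p = 0.267).

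With the lists as deposited, 904 regions were T-ALL-only and 389 were B-ALL-only, which was 3.14% and 1.35% of all merged regions. With equal lists the order turned: 316 of 18391 regions were T-ALL-only, or 1.72%, and 510 were B-ALL-only, or 2.77%. The shares are those of the comparison itself, with 1 list per line and no test. A T-ALL-only region had to be called in 4 lines and a B-ALL-only region in 2, so the counts do not weigh the sides evenly. Leaving out 1 B-ALL line also turned the order as deposited. There were 1303 T-ALL-only and 2168 B-ALL-only regions without REH, and 1660 and 3240 without SUP-B15. A single B-ALL line then made up its side while 4 T-ALL lines were still required, so these counts are set still less evenly.

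The full grid of lines per region shows how the requirement of 4 lines acted. As deposited, 12596 regions belonged to 1 T-ALL line and no B-ALL line, 3243 to 2 T-ALL lines, 1556 to 3 and 904 to all 4. On the B-ALL side, 4320 regions belonged to 1 B-ALL line and no T-ALL line and 389 to both. Each further T-ALL line thus left fewer regions, while REH and SUP-B15 shared few of the regions that the T-ALL lines lacked. With equal lists the steps were 5611, 1596, 680 and 316 regions for 1 to 4 T-ALL lines without a B-ALL line, and 4917 and 510 for 1 and 2 B-ALL lines without a T-ALL line.

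**Figure D1:**
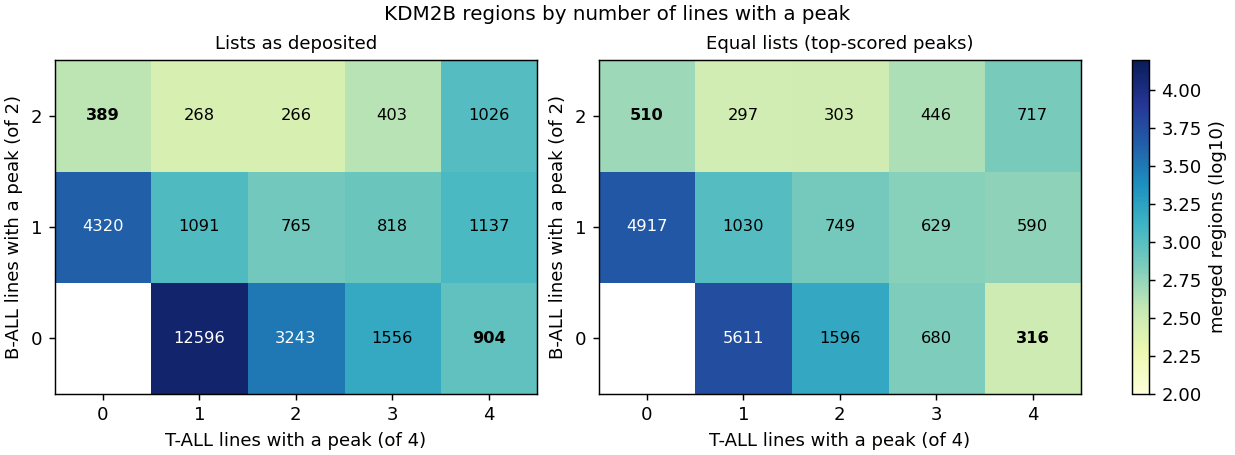
Merged regions by the number of T-ALL lines (horizontal axis, 0 to 4) and of B-ALL lines (vertical axis, 0 to 2) with a peak, for lists as deposited (left) and equal lists (right). Numbers are counts of regions, colour is their log10, and bold marks the T-ALL-only count (904 and 316) and the B-ALL-only count (389 and 510).

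Regions of a whole side were most often also called on the other side. As deposited, all 4 T-ALL lines had a peak in 3067 regions. Of these, 904 (29.5%) had no B-ALL peak, 1137 (37.1%) a peak in 1 B-ALL line and 1026 (33.5%) a peak in both. Of the 2352 regions with a peak in both B-ALL lines, 389 (16.5%) had no T-ALL peak, 268 had a peak in 1 T-ALL line, 266 in 2, 403 in 3 and 1026 (43.6%) in all 4. With equal lists, 316 of 1623 regions of all T-ALL lines (19.5%) had no B-ALL peak, and 510 of 2273 regions of both B-ALL lines (22.4%) had no T-ALL peak.

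Setting 2 T-ALL lines against the 2 B-ALL lines gives both sides the same number of lines and was chosen once the results were known. As deposited, the 6 pairs of T-ALL lines had 2016 to 2393 regions with a peak in both lines and in no B-ALL line, against 507 to 647 regions of both B-ALL lines without either line of the pair. With equal lists the T-ALL pairs had 750 to 1045 regions, against 656 to 762 in the B-ALL pair. The T-ALL count was the higher one in all 6 pairs under both lists, by 3.39 to 4.72 times as deposited and by 1.11 to 1.43 times with equal lists. The order of the 4-line and 2-line counts in equal lists, 316 against 510, therefore did not hold when each side had 2 lines. The 6 pairs share lines and are not independent of one another.

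The counts were also followed over shorter common lists. With the 1000 top-scored peaks of each line, 49 regions were T-ALL-only and 88 were B-ALL-only. The counts were 154 T-ALL-only and 254 B-ALL-only regions at 3000 peaks, and 241 and 376 at 5000 peaks. The T-ALL-only count was the lower one at every common length examined up to 7533. As a share of the regions of the whole side, T-ALL-only regions made up 29.5% and B-ALL-only regions 30.6% at 1000 peaks, and 25.33% and 27.2% at 3000 peaks. At 2000 peaks the order of the shares was the other way, with 29.7% T-ALL-only and 28.3% B-ALL-only.

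**Figure D2:**
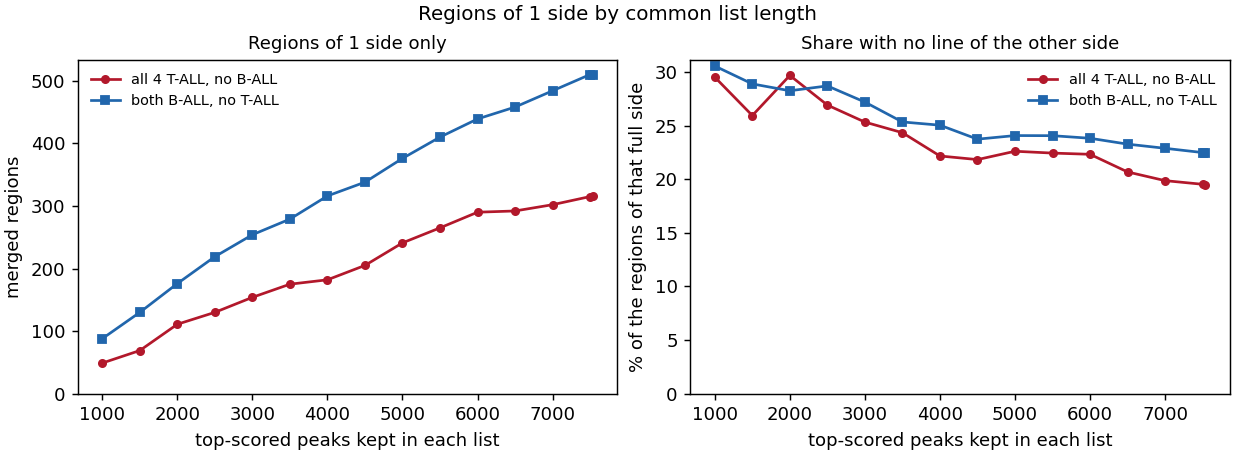
T-ALL-only (circles) and B-ALL-only (squares) regions by the number of top-scored peaks kept in each list, as counts (left) and as a percentage of the regions with a peak in every line of that side (right). The T-ALL-only count runs from 49 to 316 and the B-ALL-only count from 88 to 510, while the shares lie between 19.5% and 30.6%.

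Which regions carried each class differed between the lists. Of the 904 T-ALL-only regions, 308 (34.1%) kept a peak of all 4 T-ALL lines in equal lists, 284 kept 3 lines, 197 kept 2, 93 kept 1 and 22 kept none. Of the 389 B-ALL-only regions, 375 (96.4%) kept both lines. The equal-list T-ALL-only class gained 8 regions whose only B-ALL peak was a REH peak below the length limit, and none through SUP-B15, whose list was whole. The equal-list B-ALL-only class gained 135 regions, 26.5% of its 510, in which a T-ALL peak stood below the limit. Such a peak was from DND41 in 45 regions, HPB-ALL in 34, JURKAT in 63 and SIL-ALL in 42. Leaving those regions out gave 308 T-ALL-only and 375 B-ALL-only regions.

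T-ALL-only regions ranked below regions of all 4 T-ALL lines that B-ALL lines shared, and above merged regions as a whole. The score percentile gives the place of a region's best peak within its list, with the highest at 100. As deposited, the mean percentile over the 4 T-ALL lines had a median of 62.1 in T-ALL-only regions, 73.5 in regions that also had 1 B-ALL line and 85.5 in regions that had both. The corresponding mean percentile over the 2 B-ALL lines had a median of 60.3 in B-ALL-only regions and 68.8 in regions that also had all 4 T-ALL lines. Regions without a B-ALL peak had medians of 29.7, 42.5 and 51.3 when called in 1, 2 and 3 T-ALL lines. For the same numbers of T-ALL lines, the T-ALL medians were 44.2, 51.8 and 60.6 when 1 B-ALL line also had a peak. They were 60.4, 66.0 and 76.8 when both B-ALL lines had one. Shared regions of fewer T-ALL lines thus stood partly below the 62.1 of T-ALL-only regions. Over all merged regions the median was 42.4, taken over the lines with a peak. A mean percentile of 75 or more was found in 226 T-ALL-only regions (25%) and 115 B-ALL-only regions (29.6%). The share was 12.7% over all merged regions. That background is mostly regions of 1 line, 12596 of 1 T-ALL line and 4320 of 1 B-ALL line among 28782. Percentiles rose with the number of lines, so a class of 4 or 2 lines is not set against its like. With equal lists the shares were 69.6% T-ALL-only, 29.2% B-ALL-only and 28.0% over all regions. Percentiles there still refer to the full lists, and the T-ALL lists lost their lower-scored part. Percentiles are ranks within lists of unequal length and do not compare strength between lines.

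Merged T-ALL-only regions had a median width of 745 bp and B-ALL-only regions one of 528 bp, against 1415.5 bp for regions of all 6 lines. T-ALL-only regions are joined from the peaks of 4 lines and B-ALL-only regions from those of 2, and the part of this in the widths was not tested. Within single lines the peaks of the own-side class were wider than the list as a whole. Their median width was 241 bp in DND41 (list 213 bp), 288 bp in HPB-ALL (253 bp), 249 bp in JURKAT (240 bp) and 259 bp in SIL-ALL (223 bp), against 255 bp in REH (213 bp) and 410.5 bp in SUP-B15 (350 bp). This was not particular to the own-side class. Peaks in regions of all 6 lines had medians of 294, 366.5, 299 and 335.5 bp in DND41, HPB-ALL, JURKAT and SIL-ALL. The medians there were 245 bp in REH and 399 bp in SUP-B15. In 292 of the 904 T-ALL-only regions (32.30%), every T-ALL line had exactly 1 peak. The same held for both lines in 308 of the 389 B-ALL-only regions (79.2%). The first share asks this of 4 lines and the second of 2, so they are not on an equal footing. Line by line, the 904 T-ALL-only regions held 1375 peaks of DND41, 1267 of HPB-ALL, 1330 of JURKAT and 1336 of SIL-ALL. The 389 B-ALL-only regions held 463 peaks of REH and 430 of SUP-B15.

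The classes took up different parts of each list. T-ALL-only regions held 9.20% of the DND41 peaks, 9.93% of the HPB-ALL peaks, 8.96% of the JURKAT peaks and 8.73% of the SIL-ALL peaks, and B-ALL-only regions held 5.68% of the REH peaks and 5.71% of the SUP-B15 peaks. With equal lists the shares were 5.71%, 5.54%, 5.63% and 5.34% in DND41, HPB-ALL, JURKAT and SIL-ALL, against 8.005% in REH and 7.38% in SUP-B15. By definition every T-ALL line has a peak in each T-ALL-only region, and equal lists also have the same length. The shares of the T-ALL lines are held close together by this and do not measure how alike the lines are.

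The ranked T-ALL-only regions are those with the highest mean percentile. First was a region in 14q23.3 (hg19, chromosome 14, 66974275 to 66976376), with scores of 1036 in SIL-ALL, 407 in JURKAT, 1722 in HPB-ALL and 686 in DND41. Its nearest B-ALL peak lay 535795 bp away, and K562 had a peak in it with a score of 103. The second, in 12q24.31 (chromosome 12, 122710898 to 122712552), had scores of 739 in SIL-ALL, 348 in JURKAT, 814 in HPB-ALL and 935 in DND41 and no K562 peak. All 4 lines had both regions at percentile 95.2 or above.

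The third T-ALL-only region lay in 7q36.2 (chromosome 7, 155088538 to 155090870), with scores of 787 in SIL-ALL, 219 in JURKAT, 1336 in HPB-ALL and 582 in DND41. JURKAT held 7 separate peaks in it and HPB-ALL 1. A region in 5q21.1 (chromosome 5, 102594191 to 102595758; scores 764, 613, 293 and 665 in DND41, HPB-ALL, JURKAT and SIL-ALL) was also free of B-ALL peaks over a wide stretch, the nearest being 502701 bp away. The tenth, in 14q22.3 (chromosome 14, 56584561 to 56586422), had scores of 1098 in SIL-ALL, 196 in JURKAT, 1124 in HPB-ALL and 327 in DND41, and its nearest B-ALL peak was 537048 bp away. In both this region and the one in 7q36.2, JURKAT gave the lowest percentile of the 4 lines, 89.0 and 90.9.

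The other 5 T-ALL-only regions of the top 10 lay in 7p22.3, 12q22, 2p11.2, 14q32.31 and 10q23.33, with mean percentiles of 94.8 to 95.7. The one in 7p22.3 (chromosome 7, 1979766 to 1980723) had scores of 578 in SIL-ALL, 557 in JURKAT, 630 in HPB-ALL and 552 in DND41, at percentiles from 92.2 in SIL-ALL to 98.5 in JURKAT. The one in 2p11.2 (chromosome 2, 85765773 to 85767000) had scores of 266 in JURKAT, 1244 in SIL-ALL, 370 in DND41 and 699 in HPB-ALL, at percentiles from 93.4 in DND41 to 98.6 in SIL-ALL. The region in 12q22 (chromosome 12, 95610487 to 95611541) stood at percentiles 94.9 to 96.2 in the 4 lines, the narrowest spread among the 10. In 14q32.31 (chromosome 14, 101908361 to 101909553) the percentiles ran from 92.0 in HPB-ALL to 98.4 in JURKAT, and in 10q23.33 (chromosome 10, 94333122 to 94334617) from 92.9 in SIL-ALL to 97.2 in JURKAT. All 10 kept their 4 lines in equal lists, which follows from percentiles this high.

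The first B-ALL-only region lay in 12q13.12 (chromosome 12, 49738431 to 49741060), with 637 in REH and 1074 in SUP-B15 as scores. K562 also had a peak in it, at percentile 99.0 of the K562 list. The second lay in 3q29 (chromosome 3, 194406469 to 194409254; scores 623 in REH and 966 in SUP-B15), and a T-ALL peak lay 130 bp from it, so it left the class when no T-ALL peak was allowed within 1 kb. It was followed by regions in 17p11.2 (chromosome 17, 17626682 to 17628285; scores 473 in REH and 627 in SUP-B15) and 2q14.3 (chromosome 2, 127863285 to 127865131; scores 357 in REH and 570 in SUP-B15). Both lines had these 4 regions at percentile 98.9 or above.

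A B-ALL-only region in 6p25.3 (chromosome 6, 391584 to 394306), the band of IRF4, a transcription factor gene of B-cell and plasma cell development, had a score of 272 in REH and one of 698 in SUP-B15. REH had 6 peaks in it and SUP-B15 2, and the nearest T-ALL peak was 14427 bp away. The other 5 of the top 10 lay in 7q32.1, 21q22.3, 19q13.33, 22q13.2 and 14q32.2, with mean percentiles of 96.9 to 97.9. Their positions were 127671228 to 127672884 on chromosome 7, 44818331 to 44820241 on chromosome 21, 50935090 to 50936857 on chromosome 19, 42310596 to 42311459 on chromosome 22 and 96342559 to 96343790 on chromosome 14. The scores were 377 in REH and 332 in SUP-B15 for 7q32.1, 492 in REH and 289 in SUP-B15 for 21q22.3, and 448 in REH and 278 in SUP-B15 for 22q13.2. They were 202 in REH and 577 in SUP-B15 for 19q13.33, and 225 in REH and 335 in SUP-B15 for 14q32.2. By percentile within its list, 14q32.2 stood at 96.9 in both lines.

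**Figure D3:**
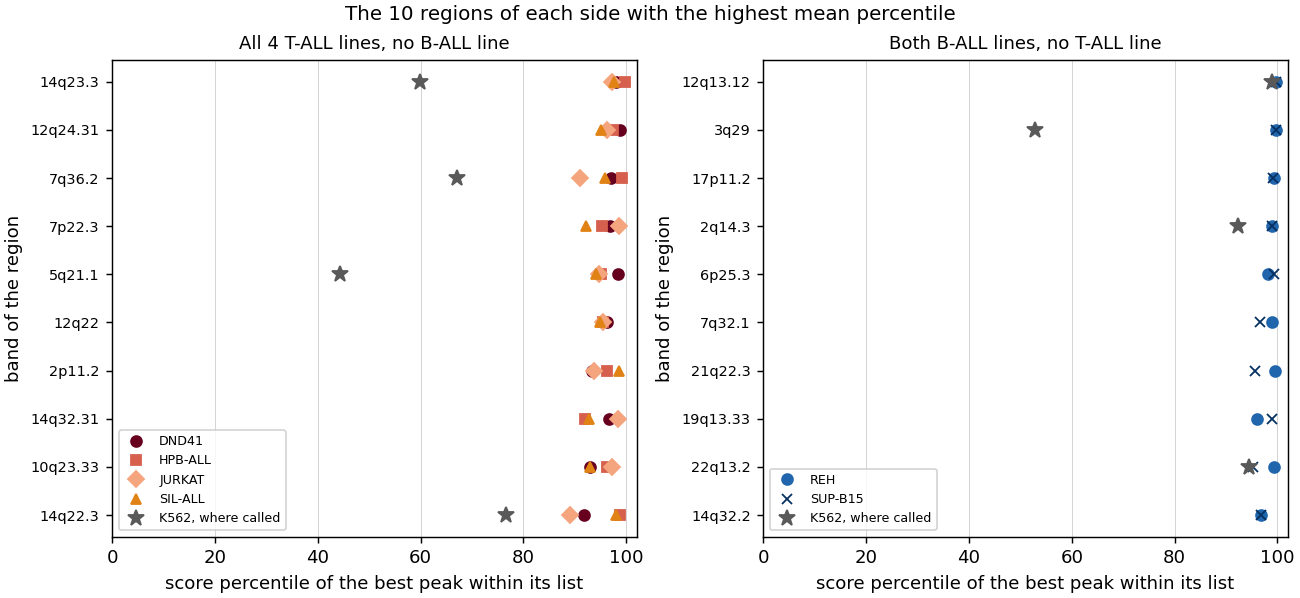
Score percentile within its own list (horizontal axis, 100 is the highest) of the best peak in the 10 highest-ranked T-ALL-only regions (left) and B-ALL-only regions (right), 1 marker per line, with K562 where it had a peak. The own-side markers lie at 89.0 or above, while K562 lies between 44.2 and 99.0 in the 4 regions of each panel where it was called.

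Other-side peaks lay nearer to B-ALL-only regions than to T-ALL-only regions. In the top 10 regions the nearest other-side peak was at a median of 97696 bp (15341 to 537048 bp) from T-ALL-only regions and 20130 bp (130 to 340757 bp) from B-ALL-only regions. Over the whole classes, 151 T-ALL-only regions (16.7%) had a B-ALL peak within 1 kb and 96 B-ALL-only regions (24.7%) had a T-ALL peak within 1 kb. Within 10 kb the shares were 23.9% of T-ALL-only and 51.9% of B-ALL-only regions, and within 100 kb 61.6% and 88.2%. T-ALL peaks were also the more numerous, and the part of their number in these distances was not tested. Regions of the same class also stood closer together in the B-ALL-only class. There 101 (26.0%) had another within 10 kb, against 62 (6.86%) in the T-ALL-only class. With equal lists these shares were 29.4% and 1.90%. A deposited T-ALL peak then lay within 1 kb of 44.7% of B-ALL-only regions, and a deposited B-ALL peak within 1 kb of 16.8% of T-ALL-only regions. The 44.7% include the 135 regions with a T-ALL peak below the length limit.

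Regions called in all 6 lines included some of the highest scores of every list. The region in 16p11.2 (chromosome 16, 30668770 to 30672892) had a score of 3100 in DND41, HPB-ALL, JURKAT and SIL-ALL, against 2406 in REH and 2703 in SUP-B15. A region on the short arm of chromosome 21, in 21p11.2 (9825451 to 9827610), had 3100 in each of the 4 T-ALL lines as well. It had 1357 in REH, 1463 in SUP-B15 and no K562 peak. No peak was filtered out and no input library was used here, so signal that an input would share was not examined. The value 3100 recurred among T-ALL peaks, in 2 peaks of DND41, 4 of HPB-ALL, 4 of JURKAT and 14 of SIL-ALL, and in no peak of REH or SUP-B15. Peaks that share this value have no order among themselves. The next regions of all 6 lines, by mean percentile, lay in 16p13.3, 17q25.3 and 1q25.3. In 16p13.3 the scores were 3050 in SIL-ALL, 1164 in JURKAT, 1090 in HPB-ALL and 1209 in DND41, against 875 in REH and 806 in SUP-B15. In 1q25.3 they were 3100 in SIL-ALL, 998 in JURKAT, 2225 in HPB-ALL and 1523 in DND41, against 249 in REH and 836 in SUP-B15.

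K562, a myeloid leukaemia line that the choice of regions did not use, had a peak in 249 of the 904 T-ALL-only regions (27.5%, Wilson 95% interval 24.7 to 30.5%) and in 77 of the 389 B-ALL-only regions (19.8%, 16.1 to 24.0%). It had a peak in 701 of the 1026 regions of all 6 lines (68.3%, 65.4 to 71.1%) and in 17% of all merged regions. In regions of 4 T-ALL lines and 1 B-ALL line the share was 47.5%. Regions called in more of the 6 lines were thus more often called in K562, and both classes of 1 side stood far below the shared regions. With equal lists K562 had a peak in 33.9% of T-ALL-only regions (28.9 to 39.2%), 23.1% of B-ALL-only regions (19.7 to 27.0%), 74.2% of regions of all 6 lines and 22.9% of all regions. The intervals cover counting error only, and the wider T-ALL-only regions have more room for a K562 peak, whose part in the difference was not tested.

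Lines of a side were more alike in their calls than lines of different sides, on average. Likeness was measured by phi, the correlation of called and not called over the merged regions of the 6 lists. As deposited, phi averaged 0.172 within sides and 0.0577 between them, a difference of 0.115 (exact permutation p = 0.0667, one-sided, the smallest possible). T-ALL pairs ranged from 0.114 (JURKAT with SIL-ALL) to 0.229 (DND41 with HPB-ALL). The B-ALL pair had 0.185 as deposited, against 0.0394 with equal lists. Phi also counts regions that both lines lack, and the part of list length in it was not tested. Pairs between the sides ranged from -0.0368 (SIL-ALL with REH) to 0.138 (DND41 with SUP-B15), so the ranges within and between sides overlapped. The difference was 0.0451 without REH and 0.168 without SUP-B15.

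With equal lists the within-side likeness came from the T-ALL lines. T-ALL pairs averaged 0.244, with the lowest at 0.199 (JURKAT with HPB-ALL) and the highest at 0.303 (SIL-ALL with DND41), while REH with SUP-B15 had 0.0394. SUP-B15 was more like each T-ALL line than like REH, with a phi of 0.140 with DND41, 0.0494 with HPB-ALL, 0.0664 with JURKAT and 0.0695 with SIL-ALL. REH had phi values between -0.0582 (with HPB-ALL) and 0.00529 (with DND41). The average was 0.215 within sides and 0.0229 between them, and the difference of 0.192 had a one-sided exact permutation p of 0.0667. By bases covered, the Jaccard index as deposited was 0.258 to 0.296 in T-ALL pairs, 0.160 in the B-ALL pair and 0.105 to 0.197 between sides, which also put the B-ALL pair within the range of pairs between sides.

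**Figure D4:**
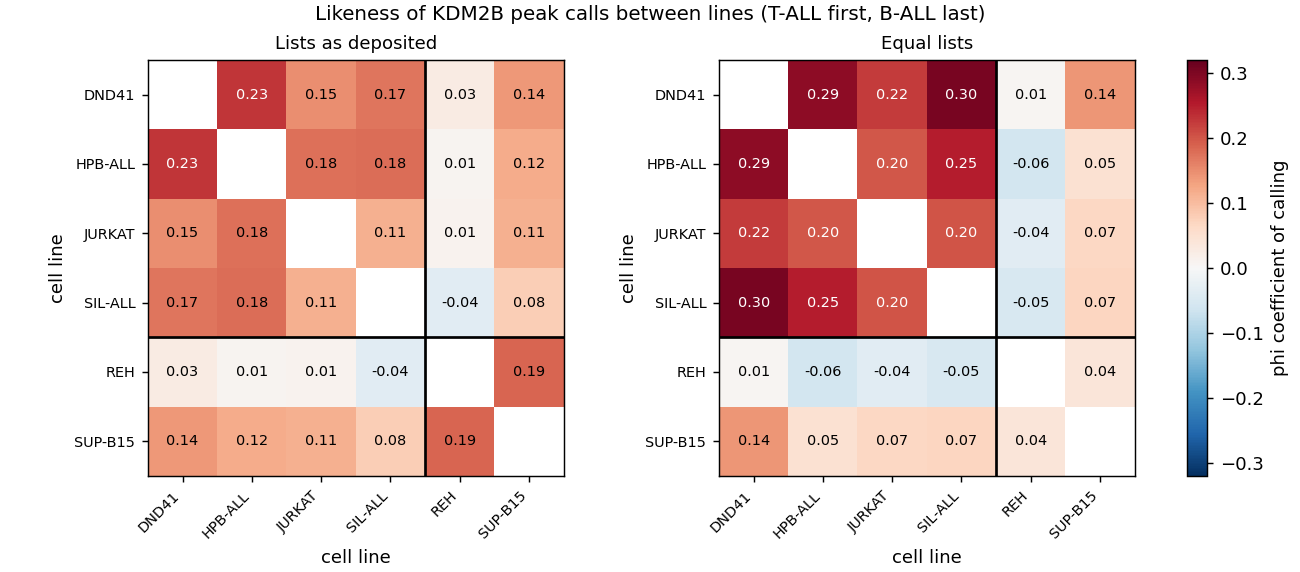
Phi coefficient of calling for each pair of lines over merged regions, with the T-ALL lines first and the B-ALL lines after the black rule, for lists as deposited (left) and equal lists (right). All 6 T-ALL pairs are at 0.199 or above in equal lists, where REH with SUP-B15 stands at 0.0394.

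REH was the line that regions of the T-ALL side most often lacked. Of the 1137 regions of all 4 T-ALL lines and 1 B-ALL line, 738 had a SUP-B15 peak and no REH peak and 399 a REH peak and no SUP-B15 peak. With equal lists these were 424 and 166 regions. The 2 B-ALL lines had 2629 (REH) and 1691 (SUP-B15) regions of their own as deposited, and 2769 and 2148 with equal lists. Regions of both B-ALL lines with a single T-ALL line were most often shared with JURKAT, in 120 regions, against 52 with DND41, 38 with HPB-ALL and 58 with SIL-ALL. JURKAT also led in equal lists, with 117 regions, against 57 with DND41, 51 with HPB-ALL and 72 with SIL-ALL.

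Single T-ALL lines kept further regions out of the T-ALL-only class. As deposited, 408 regions without a B-ALL peak lacked DND41 alone, 394 HPB-ALL alone, 461 JURKAT alone and 293 SIL-ALL alone. Seen the other way, the T-ALL-only class held 68.9% of the regions that the other 3 T-ALL lines shared for DND41, 69.6% for HPB-ALL, 66.2% for JURKAT and 75.5% for SIL-ALL. On the short arm of chromosome 3, however, HPB-ALL had a peak in 4 of 51 such regions (7.84%), and on 16p in 9 of 32 (28.1%). In equal lists it had 1 of 17 on 3p (5.88%).

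Of the 394 regions that HPB-ALL alone lacked, 47 (11.9%) lay on 3p, which was the arm with most of them. HPB-ALL had 0.470% of its peaks on 3p, against 2.80% in DND41, 2.73% in JURKAT and 2.28% in SIL-ALL, while REH had 1.01% and SUP-B15 2.30%. On this arm 4 of 670 regions were T-ALL-only and 5 were B-ALL-only, so both classes were short there. DND41 had a peak in 26 of 54 regions of the other 3 T-ALL lines on 15q (48.1%) and in 15 of 35 on 9q (42.9%), and SIL-ALL in 15 of 31 on 9q (48.4%). REH had a peak in 389 of the 2080 regions that SUP-B15 had without a T-ALL line (18.7%), but in 5 of 59 on 3p (8.47%). Copy number was not used here, and its part in these values was not tested.

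T-ALL-only and B-ALL-only regions were spread unevenly over the chromosomes. As deposited, chromosome 6 had the highest T-ALL-only share, with 81 of its 1463 regions (5.54%) against 15 B-ALL-only regions (1.03%). In equal lists chromosome 13 was highest, with 13 of 352 regions (3.69%), and chromosome 6 had 3.40%. Both of its arms contributed as deposited. On 6p 43 T-ALL-only and 12 B-ALL-only regions were found among 853 (5.04% and 1.41%), and on 6q 38 and 3 among 610 (6.23% and 0.492%). Over all regions the shares were 3.14% and 1.35%. On 4q there were 31 T-ALL-only regions and 1 B-ALL-only region among 569. In equal lists there were 16 T-ALL-only and 5 B-ALL-only of 413 regions on 6q and 13 and 1 of 360 on 4q. On 6p the counts were nearly even, with 16 and 15 of 528.

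Chromosome 21 showed the opposite balance. It held 4 T-ALL-only regions (0.957% of its 418) and 14 B-ALL-only regions (3.35%), and in equal lists 0 T-ALL-only and 19 B-ALL-only regions (6.17% of 308). REH had 2.60% of its peaks on 21q, SUP-B15 1.47%, and the T-ALL lines 1.21 to 1.33%. On 9q there were 15 T-ALL-only and 22 B-ALL-only of 956 regions (1.57% and 2.30%), and 4 and 29 of 619 in equal lists. On this arm DND41 and SIL-ALL each lacked over 50% of the regions that the other 3 T-ALL lines shared as deposited. On 22q there were 16 T-ALL-only and 21 B-ALL-only of 860 regions (1.86% and 2.44%), against 3.14% and 1.35% over all regions.

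**Figure D5:**
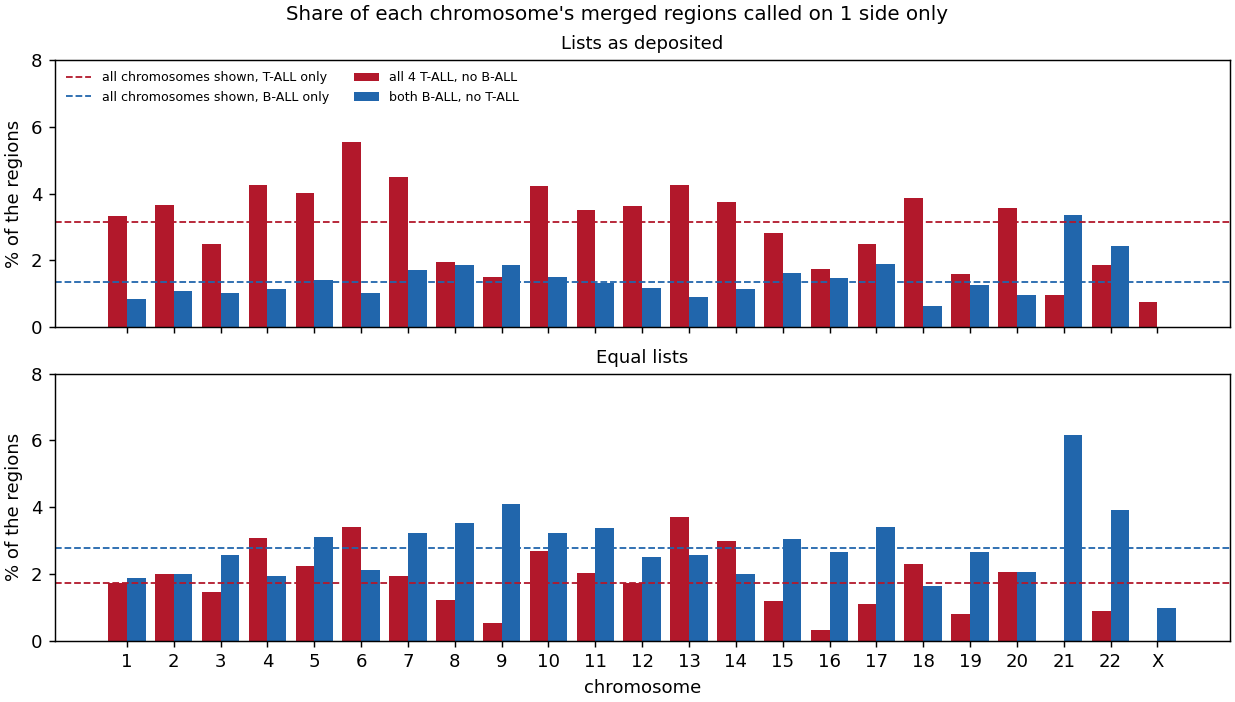
Percentage of the merged regions of each chromosome that were T-ALL-only (red, left bar) or B-ALL-only (blue, right bar), as deposited (top) and with equal lists (bottom), with dashed lines at the shares over all regions. Chromosome 6 stands highest for T-ALL-only regions as deposited (5.54%) and chromosome 21 for B-ALL-only regions under both lists (3.35% and 6.17%).

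Giemsa-light bands, which tend to be gene-rich, held 62.4% of T-ALL-only regions, 73.0% of B-ALL-only regions, 68.9% of regions of all 6 lines and 65.5% of all merged regions. With equal lists they held 61.4% of T-ALL-only and 73.9% of B-ALL-only regions. The T-ALL-only class was thus slightly below, and the B-ALL-only class above, the share over all regions under both lists. T-ALL-only regions were scattered over 424 bands and B-ALL-only regions over 183 of the 782 bands with a region.

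The bands with most T-ALL-only regions held 8 each. These were 8 of 61 regions in 7q34 (13.11%), 8 of 73 in 1p32.3 (10.96%) and 8 of 296 in 19p13.2 (2.70%), the last below the 3.14% over all regions. Most B-ALL-only regions were found in 17q25.3, with 15 of 384 (3.91%), where 6 were T-ALL-only. It was followed by 21q22.3 with 13 of 253 (5.14%; 1 was T-ALL-only), 7p22.3 with 10 of 148 (6.76%; 2 were T-ALL-only) and 17q25.1 with 9 of 165 (5.45%). The fifth, 19p13.3, had 8 of 511 (1.57%), close to the 1.35% over all regions.

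In 21q22.3 the B-ALL-only regions formed a row. Of the 13, 6 lay between 45559286 and 45627655 on chromosome 21. The region at 45563046 to 45565121 had 543 in REH and 98.0 in SUP-B15, and the mean percentiles of the 6 ran from 21.8 to 91.6. The highest-ranked region of the band, at 44818331 to 44820241, had a score of 492 in REH and one of 289 in SUP-B15. In 7p22.3 the region at 1707217 to 1708987 on chromosome 7 had 115 in REH and 812 in SUP-B15.

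Bands of 16 genes of T-cell identity or T-ALL and of 16 genes of B-cell identity or B-ALL were then compared. A band holds many genes, and regions were not assigned to a gene. The 16 T-cell bands held 1055 merged regions, of which 38 (3.60%) were T-ALL-only and 16 (1.52%) were B-ALL-only. The 16 B-cell bands held 1130 regions, of which 34 (3.01%) were T-ALL-only and 15 (1.33%) were B-ALL-only. These shares were close to 3.14% and 1.35% over all regions, so neither list of bands stood out from the background as deposited.

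With equal lists, 16 of 659 regions in the T-cell bands were T-ALL-only (2.43%) and 17 were B-ALL-only (2.58%). In the B-cell bands 5 of 735 were T-ALL-only (0.680%) and 15 were B-ALL-only (2.04%). Over all regions the equal-list shares were 1.72% T-ALL-only and 2.77% B-ALL-only. T-ALL-only regions were thus above their background share in the T-cell bands and below it in the B-cell bands. B-ALL-only regions were below theirs in both, and lower in the B-cell bands than in the T-cell bands. Of the 16 T-ALL-only regions in the T-cell bands, 4 lay in 7q34 alone. The counts are small and no test was run.

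Single bands of receptor genes differed in their counts, which describe the band and not the gene. The band of TRB, which encodes the T-cell receptor beta chain, 7q34, held 8 T-ALL-only and 0 B-ALL-only of 61 regions. With equal lists it held 4 and 0 of 42. The 8 were spread from 138720105 to 142553017 on chromosome 7, and whether any lay in TRB was not examined. The last of the 8 along the chromosome, at 142551801 to 142553017 on chromosome 7, had scores of 395 in SIL-ALL, 132 in JURKAT, 404 in HPB-ALL and 235 in DND41. The highest-ranked was at 138792970 to 138794737, with 1002 in SIL-ALL, 243 in JURKAT, 1324 in HPB-ALL and 170 in DND41. Both had a K562 peak, as did 5 of the 8 regions of this band.

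The band of IGH, the immunoglobulin heavy chain locus, 14q32.33, held 1 T-ALL-only and 7 B-ALL-only of 141 regions, and 0 and 8 of 106 with equal lists. The 7 lay between 104860344 and 105994895 on chromosome 14, and whether any lay in IGH was not examined. Their scores were 57.3 to 148 in REH and 52.2 to 195 in SUP-B15, at mean percentiles from 17.7 to 89.7. The bands of the other receptor genes held few regions of either class. Of 85 regions in 14q11.2 (TRA, the alpha chain of the T-cell receptor), 1 was T-ALL-only and 0 were B-ALL-only. The counts were 2 and 0 of 25 in 7p14.1 (TRG, the gamma chain) and 1 and 1 of 15 in 22q11.22 (IGL, an immunoglobulin light chain). In 2p11.2, the band of the other light chain gene IGK, 4 of 67 regions were T-ALL-only and 0 were B-ALL-only.

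Among bands of transcription factor genes, 5q31.1, the band of the early T-cell factor TCF7, held 5 T-ALL-only regions and 1 B-ALL-only region of 87. Its highest-ranked T-ALL-only region, at 133422156 to 133423270 on chromosome 5, had scores of 502 in SIL-ALL, 643 in JURKAT, 626 in HPB-ALL and 159 in DND41. The band of GATA3, 10p14, held 4 T-ALL-only regions and 1 B-ALL-only region of 65. The band of NOTCH1, the receptor gene most often mutated in T-ALL, 9q34.3, held 1 T-ALL-only and 4 B-ALL-only regions of 166. The band of LMO2, 11p13, held 0 and 2 of 63, and the band of TAL1, 1p33, held neither class among 27 regions. On the B-cell side, the bands of PAX5 (9p13.2, 29 regions) and BLNK (10q24.1, 48 regions) held neither class. That of MS4A1, the CD20 gene (11q12.2), held 6 T-ALL-only and 0 B-ALL-only of 38 regions as deposited and none of either with equal lists. Over all regions the shares as deposited were 3.14% T-ALL-only and 1.35% B-ALL-only, and the counts in single bands are small.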

How the data were processed

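KDM2B ChIP-seq peak lists of 6 lines were used, with the K562 list only to describe regions and the 5 input libraries not used. Per the submitters' processing notes, the tools were FastQC 0.10.1 for read quality and Bowtie 1.1.1 for alignment to hg19. The peak names in the deposited lists are of the form MACS writes, while the version, control and threshold of that caller are given in none of the sources used here. Each deposited list gives a position, a name and a score per peak, and the score is the authors' own value with no unit stated. Among the samples used here DND41 and JURKAT had no input library. The depth of each library is unknown, so no interval can be given for the presence of a peak. Wilson 95% intervals of shares cover counting error only.

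Peaks overlapping by at least 1 bp were merged, and a line with at least 1 peak in a region was counted as having it. Equal lists kept the 7533 top-scored peaks of each line, with ties broken by file order. Differences of means between sides were tested by exact permutation over the 15 ways to place the lines, two-sided, and phi one-sided, and no multiple-test adjustment was applied because no p could pass 0.05. The merging and class counts were tested on simulated data. The regions named are the 10 with the highest mean score percentile in each class of 1 side and the 5 highest of all 6 lines, and the bands named are those of the 32 lineage genes and those with most regions. The sides, region classes and band lists were chosen with earlier results of these data known, and the arms described line by line and the bands listed region by region were picked after their values were seen.

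Alternatives were a score threshold at the median of each list, a common score floor, an overlap of 100 bp, merging up to 500 bp, absence within 1 kb, autosomes alone, the Jaccard index, shorter equal lists and each line left out. Setting 2 lines against 2 lines was added after the data were examined. Positions are hg19 coordinates counted from 1, and bands come from the cytoband table of circlize 0.4.16 (R 4.3.3), by the midpoint of a region. No genome or gene annotation of hg19 was used here, so regions were not assigned to genes and no sequence is printed. A gene table of GRCh38.p14 was used only to check the chromosome of the 32 lineage genes, which matched the bands for all of them. The software was Python 3.11.15, scipy 1.17.1, pandas 2.3.3, numpy 2.4.6 and, for figures, matplotlib 3.10.9.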

Additional observations from a re-analysis of the deposited data

Results flagged for a closer look

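The K562 list stands outside the comparison of T-ALL with B-ALL lines, and it held signal in the regions of both classes. K562 had a peak in 249 T-ALL-only regions and in 77 B-ALL-only regions as deposited, which is why the results are given here. The T-ALL-only share was 27.5% (24.7 to 30.5%). The B-ALL-only share, 19.8% (16.1 to 24.0%), was close to the 17% of all merged regions, as it was in equal lists with 23.1% against 22.9%. Among the 10 highest-ranked regions, 4 T-ALL-only and 4 B-ALL-only regions held a K562 peak. In the T-ALL-only ones its percentile within the K562 list was 59.9 (14q23.3), 67.0 (7q36.2), 44.2 (5q21.1) and 76.6 (14q22.3), and in the B-ALL-only ones it was 99.0 (12q13.12), 52.8 (3q29), 92.3 (2q14.3) and 94.5 (22q13.2). For 15 values per T-ALL line, the gap of the highest or lowest line to its nearest neighbour was set against the 95% critical value of Dixon's test for 4 values, as a share of the whole range. No gap passed it. The widest were those of HPB-ALL in peak number (0.817) and of JURKAT in regions shared with both B-ALL lines alone (0.756). HPB-ALL on 3p had 0.584, with a share of 7.84% (4 of 51 regions) against 50 to 80% in the other lines. Those shares rest on few regions, 4 of 5 in DND41, 4 of 5 in JURKAT and 4 of 8 in SIL-ALL. Such regions need a peak of HPB-ALL, which had few on 3p. The B-ALL side has 2 lines, and its gaps were not examined.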

How the results depend on the processing

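Named regions aside, 126 values were recomputed under an alternative: 77 stayed close or kept their direction, 37 moved and 12 reversed. For peak number, median width, covered length and phi, any value that kept its sign was counted as staying, whatever its size. The peak number difference of 2986 with merging up to 500 bp counted as staying, beside 6624 as deposited. So did the phi difference of 0.0451 with a common score floor, beside 0.115 as deposited. The 77 are therefore no measure of robustness for these differences. For the named regions 99 of 100 values stayed and 1 moved, that of 3q29. These regions were chosen for high percentiles, and lists cut by score keep such peaks and add none. Only absence within 1 kb could move a value, and only in the classes of 1 side, so the count is no measure of robustness. The cause was not tested for these values, except where the construction shows it. The difference between T-ALL-only and B-ALL-only counts (515 as deposited) was -194 with equal lists (316 and 510), 313 with a threshold at the median score of each list (551 and 238) and 823 with a common score floor (154 B-ALL-only regions). With 2 T-ALL lines against 2 B-ALL lines it was 1484, 1505, 1766, 1620, 1670 and 1886 as deposited, and 187, 77, 225, 223, 283 and 283 with equal lists, in place of -194. In equal lists the counts were 154 and 254 with 3000 peaks (difference -100), and the difference was -121 with merging up to 500 bp and -67 when no other-side peak of the deposited lists was allowed.

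With each line left out, the deposited counts ranged from 1221 to 1660 for T-ALL-only regions and from 435 to 3240 for B-ALL-only regions, and the difference from -1580 to 871. It was -865 without REH (2168 B-ALL-only regions) and -1580 without SUP-B15 (1660 T-ALL-only and 3240 B-ALL-only regions), since 1 B-ALL line alone then made up its side. Without JURKAT there were 1391 T-ALL-only regions, which follows from 3 lines being required in place of 4. With equal lists the ranges were 455 to 744 T-ALL-only regions, 573 to 3540 B-ALL-only regions and -2796 to -65 for the difference. The T-ALL-only and B-ALL-only counts were 744 and 3540 without SUP-B15 and 484 and 2756 without REH, and the T-ALL-only count was 516 without DND41 and 545 without JURKAT.

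The difference in median width (-49.3 bp) was 56.0 bp with equal lists (exact permutation p = 0.2), 52.9 bp with merging up to 500 bp (exact permutation p = 0.667) and 19.3 bp without SUP-B15, with a range of -118 to 19.3 bp over the lines left out. Peak number ranged from 6317 to 7190, covered length from 1.13 to 2.41 Mb and the phi difference from 0.0451 to 0.168 over the lines left out, where the smallest p is 0.1 or 0.2. Merging up to 500 bp gave a peak number difference of 2986, and a common floor gave 8177 (exact permutation p = 0.133) and a phi difference of 0.0451 (exact permutation p = 0.267). The K562 share of T-ALL-only regions was 33.9% with equal lists and 31.4% within 500 bp, in place of 27.5%. No paired analysis was possible because a line had a single list.

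Unknown depth, 1 library per line, different score floors and 2 B-ALL lines against 4 T-ALL lines limit every count. A missing peak is a peak that was not called, and a site of a side cannot be told apart from a site of its libraries.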
